A study of Mus musculus with 15 samples.

Results

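H3K27ac peaks at 10 mesenchymal transcription factor genes were described in a tumor of a mouse model of fusion-positive rhabdomyosarcoma (FP-RMS). The genes were Prrx1, Prrx2, Twist1, Twist2, Snai1, Snai2, Zeb1, Zeb2, Tcf21 and Osr1. A window was set around each gene, from 50 kb before to 50 kb after its RefSeq span in mm10, and every peak that overlapped a window by at least 1 bp was taken. These windows held 186 of the 122375 peaks in the list. A peak was called promoter within 2 kb either side of a start site of the gene, gene body elsewhere in the span, and flank in the rest of the window. By this division 23 peaks were at promoters, 77 in gene bodies and 86 in flanks.

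The study compared H3K27ac between tumors of 2 models, called MCP (with Myf6-Cre) and TCP (with Tek-Cre), to look for differences at promoters and enhancers. Both also carry Cdkn2a(Flox/Flox), the allele Pax3(P3Fm/P3Fm), written Pax(3P3F/P3F) in the labels, and the reporter R26-tdTom. CUT&RUN was run with an antibody to H3K27ac (6 MCP and 3 TCP libraries) or with IgG as background (3 and 3). The peak list used here came from 1 library, MCP H3K27ac replicate 5, so there are no replicates and no comparison between MCP and TCP was made. Myf6-Cre acts in myogenic cells, where it turns on the fusion protein PAX3-FOXO1 from the Pax3 locus, removes Cdkn2a and switches on the tdTomato reporter. In the paper MCP mice developed several tumor types, FP-RMS among them. The paper describes focal MYOD1 and MYOGENIN staining in MCP tumors, which it finds closer to mesenchymal and epithelial differentiation than to alveolar rhabdomyosarcoma. Per the paper, live tumor cells were sorted by FACS from the dissociated tumor, with DAPI to mark dead cells. Its CUT&RUN methods do not state whether tdTomato was gated, as it was for single-cell RNA sequencing. Other living cells of the tumor may therefore be included, and a mark in few cells cannot be told apart from a weak mark in many. The age of the mouse was not given in the sources used here.

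The list gave the fold enrichment of each peak over the local IgG background, and the number of fragments over each summit was recovered from the fold and the p of the caller. The median peak had 13 fragments (quartiles 10 and 17), so single peaks were imprecise, and the Poisson 95% intervals given below cover counting error alone. Among marker genes, a promoter peak lay at 1 of 8 myogenic genes (Myf6), 0 of 6 endothelial, 1 of 5 immune (Cd68) and 2 of 6 fibroblast genes (Col3a1 and Pdgfra), compared with 45.6% of all protein-coding genes. None of these markers was in the highest 2 of 10 groups of genes by CpG content at the start, where 71.0% and 72.4% of genes had a promoter peak. The share was nearly as high in group 6 (65.2%), and lower in group 4 (28.9%) and group 1 (3.02%). The other 7 myogenic markers, Myod1, Myog and Pax7 among them, had no peak in the promoter or the gene body. Flank peaks were present at Myf5 (29), Chrna1 (17), Des (15), Myod1 (11) and Cdh15 (7), and Myog and Pax7 had no peak in the window. A gene body peak lay at 0 of 8 myogenic markers, 4 of 6 endothelial (Pecam1, Cdh5, Tek and Erg), 1 of 5 immune (Spi1) and 1 of 6 fibroblast (Col3a1). Over all protein-coding genes 33.2% had a gene body peak and 72.2% a flank peak. The part of other cells in the peaks described here was not tested.

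H3K27ac, acetylation of lysine 27 of histone H3, marks active promoters and enhancers. The PRRX factors are paired-related homeodomain proteins of limb, craniofacial and connective tissue mesenchyme. The TWIST factors and TCF21 are basic helix-loop-helix proteins that pair with E proteins at E-box sequences. SNAI and ZEB factors are zinc finger repressors that bind E-boxes, silence epithelial genes such as Cdh1, and drive epithelial to mesenchymal transition. In muscle, TWIST and SNAI factors are known to hold back MyoD activity in progenitors, ZEB1 represses muscle genes, TCF21 marks fibroblast progenitors of heart, kidney and muscle, and OSR1 marks fibro-adipogenic progenitors and embryonic connective tissue.

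Sequence is shown for 2 promoters that differ in CpG content, because they carry a contrast described below. It is also shown, as examples, for the highest 1 or 2 peaks by fold at Prrx1, Twist2, Snai1 and Zeb2, among those that were at the gene or nearest to its start and whose summit stretch held no exon. Higher peaks nearest to a neighboring gene are not shown. Sequences and start sites are from RefSeq on GRCm38.p6, the assembly of mm10. The promoter stretches run from 250 to 51 bases before the start site on the strand of the gene, with CG dinucleotides in capitals. That of Twist1 (chr12:33957421-33957620, plus strand) lay in the gap between its promoter peaks, and that of Tcf21 (chr10:22820194-22820393, minus strand) lay far from any peak.
Twist1 promoter: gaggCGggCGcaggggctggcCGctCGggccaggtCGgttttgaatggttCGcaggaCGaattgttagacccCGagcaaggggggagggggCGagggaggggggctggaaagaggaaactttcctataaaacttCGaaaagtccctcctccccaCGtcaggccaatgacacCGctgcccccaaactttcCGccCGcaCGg
Tcf21 promoter: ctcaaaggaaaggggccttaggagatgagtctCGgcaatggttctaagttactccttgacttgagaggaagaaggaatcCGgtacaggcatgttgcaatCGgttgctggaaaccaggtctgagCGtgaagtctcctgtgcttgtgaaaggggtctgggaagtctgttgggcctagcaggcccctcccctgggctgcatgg

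The Twist1 stretch held 15 CG, and 17.8% of 32851 RefSeq promoter stretches of the same length held as many or more. The Tcf21 stretch held 4 CG, which 54.2% of the stretches reached. In the same stretch Prrx1 had 3 CG (reached by 63.6%) and Prrx2 had 16 CG (reached by 15.9%). All 200 bases of these stretches lay in an annotated exon of RefSeq or GENCODE M21, compared with 0 bases of the Twist1 and Tcf21 stretches.

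The peak stretches are the 201 bases centered on a summit, on the plus strand, and the capitals mark matches to the motifs searched. Motifs were searched on both strands: CACCTG (the E-box of SNAI and ZEB), CATCTG and CATATG (E-boxes of TWIST), CAGCTG (an E-box of MYOD1 and MYOG), TAATTA (a homeodomain core), TGANTCA (AP-1), GGAATG (TEAD), TGTTTAC (forkhead) and GTCACGC (a PAX paired domain core). The MYOD1 and MYOG E-box, the second TWIST E-box and the homeodomain core read the same on both strands and were counted once per place. The E-boxes differ from each other in letters and cannot match at the same bases, whereas other motifs could share bases. Both Prrx1 stretches are in intron 1 (chr1:163270545-163270745 and chr1:163310365-163310565). The Twist2 stretch lies beyond the end of the gene (chr1:91860709-91860909), as does that of Snai1 (chr2:167570922-167571122), and both Zeb2 stretches lie in intron 2 (chr2:45020187-45020387 and chr2:45019493-45019693).
Prrx1 intron, fold 19.9: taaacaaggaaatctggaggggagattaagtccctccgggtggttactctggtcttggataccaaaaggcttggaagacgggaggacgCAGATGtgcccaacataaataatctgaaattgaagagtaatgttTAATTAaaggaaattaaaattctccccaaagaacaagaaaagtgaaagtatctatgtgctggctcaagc
Prrx1 near the start, fold 15.1: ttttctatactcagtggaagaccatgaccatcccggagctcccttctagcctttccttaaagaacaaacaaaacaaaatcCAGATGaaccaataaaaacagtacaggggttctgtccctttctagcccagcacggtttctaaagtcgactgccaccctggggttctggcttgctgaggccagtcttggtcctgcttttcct
Twist2 downstream, fold 10.4: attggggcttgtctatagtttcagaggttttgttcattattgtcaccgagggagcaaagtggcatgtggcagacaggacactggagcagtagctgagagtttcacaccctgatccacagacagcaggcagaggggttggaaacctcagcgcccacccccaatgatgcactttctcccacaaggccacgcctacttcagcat
Snai1 downstream, fold 8.67: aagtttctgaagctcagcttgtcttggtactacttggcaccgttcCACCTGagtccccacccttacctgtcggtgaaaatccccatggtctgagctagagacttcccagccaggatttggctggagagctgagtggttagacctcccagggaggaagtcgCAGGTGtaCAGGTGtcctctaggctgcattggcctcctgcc
Zeb2 intron, fold 8.67: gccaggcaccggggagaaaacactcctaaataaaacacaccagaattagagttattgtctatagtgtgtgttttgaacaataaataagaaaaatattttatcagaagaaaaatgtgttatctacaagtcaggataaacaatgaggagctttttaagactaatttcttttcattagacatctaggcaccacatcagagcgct
Zeb2 intron, fold 5.22: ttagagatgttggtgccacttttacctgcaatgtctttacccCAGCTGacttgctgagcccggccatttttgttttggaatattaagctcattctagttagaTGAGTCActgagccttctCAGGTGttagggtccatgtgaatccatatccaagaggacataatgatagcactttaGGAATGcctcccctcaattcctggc

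Both Prrx1 stretches held a CATCTG match, read as CAGATG, and the stronger held TAATTA as well. The Snai1 stretch held 3 CACCTG matches, of which 2 were read as CAGGTG. The weaker Zeb2 stretch held CAGCTG, an AP-1 match, CACCTG as CAGGTG and GGAATG, while the stronger Zeb2 stretch and the Twist2 stretch held none of the motifs. Stretches of this length held CATCTG at 15.7%, CACCTG at 12.1%, GGAATG at 11.6%, CAGCTG at 10.3%, AP-1 at 8.92% and TAATTA at 5.97% of the 95604 summits of the list away from promoters. A match is a description of letters and not a binding site.

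Of the 10 genes, 6 had a promoter peak (Prrx1, Twist1, Twist2, Snai1, Snai2 and Zeb1), compared with 45.6% of 21000 protein-coding genes. The 45.6% is not matched for CpG within 500 bp of the start, of which the 10 genes had more (median 82 against 48). A gene body peak was present at 6 (Prrx1, Twist2, Snai1, Snai2, Zeb1 and Zeb2), compared with 33.2% of all genes, and a flank peak at 7, compared with 72.2%. Tcf21 and Osr1 had no peak in the window, as did 22.1% of all genes. Prrx2 had flank peaks but none at the promoter or in the body, so 3 of the 10 genes had no promoter or body peak, compared with 46.2% of all genes. A share over 10 genes is imprecise, so these counts are given as a description. The number and place of the peaks differed widely between the genes.

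**Figure D1:**
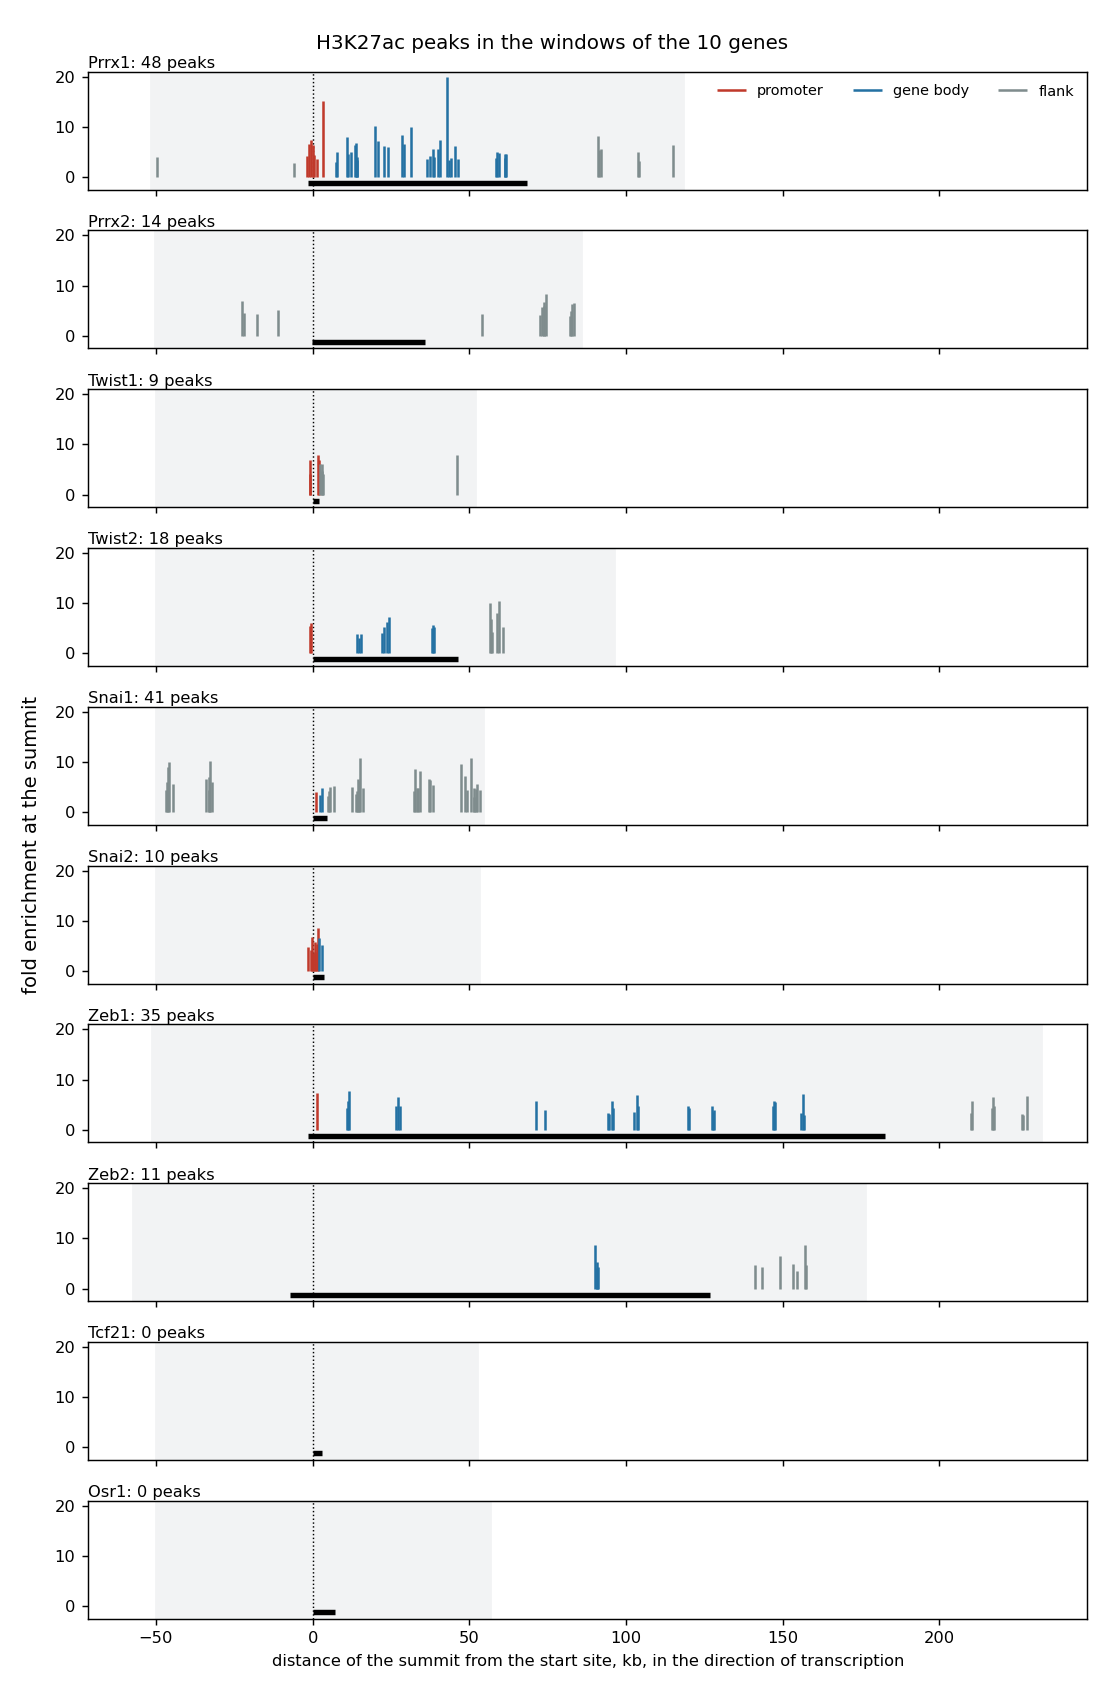
Each row is a gene and each line a peak, placed by the distance of its summit from the start site in kb (x axis) with its fold enrichment as height (y axis). Black bars are the RefSeq spans and shading the windows with 50 kb on both sides. Peaks of Prrx1 fill its first intron and reach a fold of 19.9, the 10 peaks of Snai2 sit at its start, and Tcf21 and Osr1 have none.

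Prrx1 had the most peaks of the 10 genes, 48, with 7 at the promoter, 33 in the gene body and 8 in the flank. Its window had 28.2 peaks per 100 kb, percentile 96.02 among all genes, and 13.5% of its bases lay under a peak. The strongest peak (chr1:163270172-163271374) lay in intron 1, 43.0 kb from the start site, with a fold of 19.9 and 46 fragments (95% interval 33.7 to 61.4) against a background of 1.09. This fold stood at percentile 99.7 among the strongest promoter or body peaks of all genes. Further broad peaks followed toward the start, at 31.5 kb (2889 bp wide, fold 9.98, 44 fragments), 28.4 kb (1228 bp, fold 8.43), 22.8 kb (2040 bp, fold 6.22) and 20.0 kb (1258 bp, fold 10.1). Another broad peak, the nearest to the start, reached into the promoter window (chr1:163308527-163311960) and was 3434 bp wide, with a fold of 15.1 and 41 fragments (29.4 to 55.6).

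Intron 1 thus held 29 of the Prrx1 peaks and all of its 6 peaks of at least 1 kb width. In all windows 10 of the 186 peaks were this wide, compared with 4.74% of the peaks of the list, and Twist2 and Snai1 had 2 each. At the Prrx1 start itself, peaks ended 5 bp downstream and 153 bp upstream, which left a gap of 157 bp that contained the start site. The promoter peaks beside the gap had folds of 6.43 (22 fragments, 13.8 to 33.3) downstream and 7.28 (18 fragments, 10.7 to 28.5) upstream. A last group in intron 3 near the end of the gene was weaker, with 6 peaks of fold 3.74 to 4.91.

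Prrx2, the paralog with an overlapping role in the limb and face, had 14 peaks, all in the flank. Their folds ran from 3.87 to 8.24, with a median of 5.44. The nearest summit lay 10953 bp upstream of the RefSeq start. That peak (fold 5.22, 11 fragments, 5.49 to 19.7) lay 558 bp from the start of a longer Prrx2 transcript in GENCODE M21, so the call of no promoter peak at Prrx2 held for RefSeq starts alone. By RefSeq start sites every one of the 14 peaks was nearer to another gene, with 8 nearest to Ptges, which makes prostaglandin E2, 4 to Asb6 and 2 to Tor1b. The strongest (fold 8.24, 22 fragments, 13.8 to 33.3) lay 74.5 kb downstream of the start. Of the peak numbers that run along the genome, 1 was absent at the Prrx2 window, and what it held is not known here.

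Twist1 had 9 peaks, 4 at the promoter and 5 in the flank, and none of the promoter peaks covered the start. They flanked a gap of 1761 bp, with folds of 6.94 (15 fragments, 8.40 to 24.7) and 4.17 (13 fragments) upstream and 7.81 (17 fragments, 9.90 to 27.2) and 6.94 (15 fragments) downstream, with summits in an exon. Further peaks followed to 3484 bp from the start. A separate peak of fold 7.81 lay 46.0 kb downstream, with 17 fragments.

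Twist2 had 18 peaks, with 2 just upstream of the start (folds 5.55 and 6.08, 12 and 13 fragments). Its intron held 10 peaks in 3 groups at 14.2 to 15.6 kb, 22.0 to 24.3 kb and 38.1 to 38.7 kb from the start, with folds from 3.12 to 7.30. The strongest peaks of its window lay beyond the end of the gene, at 56.6 to 60.7 kb. There folds reached 10.4 (29 fragments, 19.4 to 41.7) and 10.1 (33 fragments, 22.7 to 46.3), compared with 5.55 and 6.08 at the promoter. The interval of the peak with 33 fragments lay above those of both promoter peaks (6.20 to 20.96 and 6.92 to 22.2), and that of the peak with 29 fragments overlapped them. The nearest start site to these flank peaks was that of Twist2. In contrast to Twist1, whose peaks were mostly within 4 kb of its start, most Twist2 peaks were distant.

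Snai1 had the densest window, with 41 peaks or 39.2 per 100 kb, percentile 98.9 among all genes. Few were at the gene: 1 promoter peak (fold 3.99, 9 fragments, 4.12 to 17.1) and 2 peaks in intron 2 (folds 3.50 and 4.79, 7 and 10 fragments). The other 38 lay in the flank, 10 upstream and 28 downstream. Of the flank peaks 8 were in promoter windows of the neighbors Rnf114, a ubiquitin ligase gene, and Spata2. By nearest start site 22 of the 41 belonged to Snai1, 9 to Rnf114, 9 to Ube2v1 and 1 to Spata2. The strongest flank peak nearest to Snai1 lay 15.3 kb downstream with a fold of 10.8 (24 fragments, 15.4 to 35.7), and a second group at 32.2 to 38.3 kb reached 8.67. At the 15.3 kb peak, 67 bases of the summit stretch lay in an annotated exon of RefSeq or GENCODE M21. Nearest starts were those of curated RefSeq transcripts, and other starts were not counted. Another group, nearest to Ube2v1 but 47.4 to 53.6 kb from the Snai1 start, reached 10.7 (29 fragments, 19.4 to 41.7).

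Snai2 had the opposite arrangement. All 10 of its peaks were at the gene, 8 at the promoter and 2 in the body, and its flanks had none. Snai2 was the only 1 of the 10 genes with more promoter than flank peaks, compared with 8.85% of all genes. Among genes with a promoter peak, 9.13% had no flank peak. At least 7 promoter peaks were present at Prrx1 and Snai2, and at 1.68% of all genes. The Snai2 peaks spanned 4.61 kb without a space of 1 kb between them. Folds ran from 3.58 to 8.51, and the strongest lay 1695 bp into the gene, in intron 2 (19 fragments, 11.4 to 29.7). Peaks ended 132 bp upstream and began 164 bp downstream of the start. The peak just upstream had a fold of 6.82 and 22 fragments (13.8 to 33.3).

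Zeb1 had 35 peaks over its long span, with 1 at the promoter, 26 in the body and 8 in the flank. The promoter peak (fold 7.37, 16 fragments, 9.15 to 26.0) was 97 bp wide and lay 1331 bp downstream of a start site, and its place was also in the promoter window of Gm10125. The body peaks were spread as small groups through introns 2 to 4, from 10997 bp to 156.8 kb, with folds of 2.90 to 7.81 and a median of 4.79. None of the Zeb1 peaks reached a width of 1 kb. Its flank peaks were all downstream, and upstream of the gene no peak lay within 81.1 kb of the start.

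Zeb2 had 11 peaks and none at any of its 7 RefSeq start sites. The nearest summit was 89990 bp from a start. This site in intron 2 held 4 peaks within 1.48 kb, with folds of 4.17 to 8.67, and the strongest was 876 bp wide with 19 fragments (11.4 to 29.7). By nearest start site all 4 belonged to Mir5129, whose start lay 2890 to 3928 bp from their summits. The other 7 peaks lay downstream of the gene, nearest to the start of Gtdc1, and reached a fold of 8.67 as well (19 fragments, 11.4 to 29.7). A stretch of 494.1 kb around the Zeb2 start sites held no peak, and no peak number was absent from it.

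No peak lay in the windows of Tcf21 and Osr1. The nearest summit was 88093 bp from the Tcf21 start, in a gap of 344.7 kb, and 264766 bp from the Osr1 start, in a gap of 539.9 kb. No peak number was absent from either gap. Peaks were present farther out, with 78 in the 1 Mb on either side of the Tcf21 window and 85 for Osr1. A weaker mark was not detectable at this depth, since no peak of the list had fewer than 7 fragments.

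**Figure D2:**
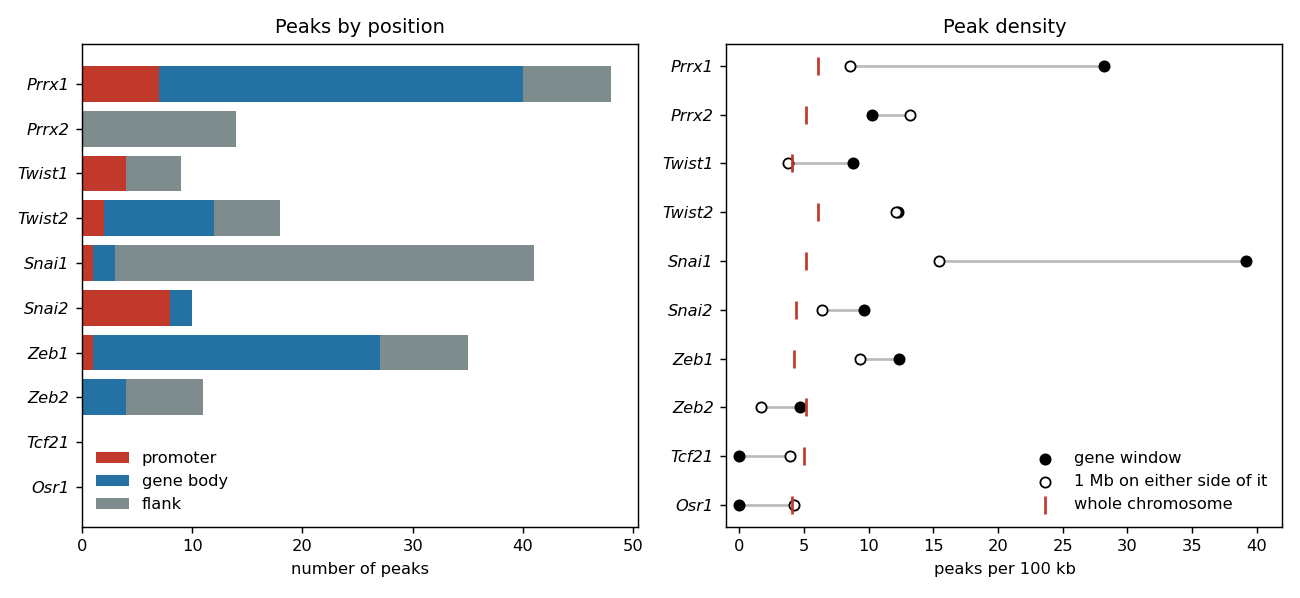
The left panel shows the number of peaks per gene by position, and the right panel the peaks per 100 kb in each window (filled), in the 1 Mb on either side (open) and on the chromosome (red bar). Prrx1 and Snai1 stand far above their surroundings in peaks per 100 kb. Twist1, Snai2, Zeb1 and Zeb2 lie above theirs by fewer peaks per 100 kb. Twist2 lies at the level of its surroundings, and Prrx2, Tcf21 and Osr1 lie below theirs.

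Density in the surroundings differed as well. The Snai1 window (39.2 peaks per 100 kb) lay in a region that was itself dense, with 15.4 per 100 kb in the 1 Mb on either side, compared with 5.19 on chromosome 2. For Prrx1 the window had 28.2 against 8.55 around it. Twist2 had 12.3 against 12.2, Zeb1 had 12.3 against 9.35, Snai2 had 9.66 against 6.35 and Twist1 had 8.81 against 3.75. Prrx2 was below its surroundings, with 10.3 against 13.2. Zeb2 had 4.70 against 1.65, a low density around the gene.

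**Figure D3:**
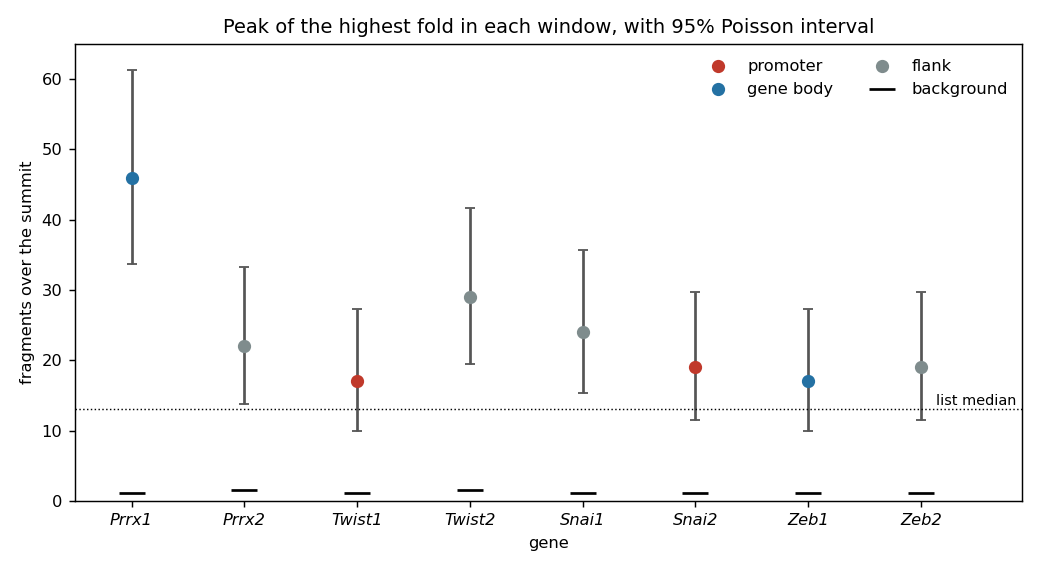
Fragments over the summit (y axis) of the peak with the highest fold in each window, with the 95% Poisson interval and the local background. Where folds were tied, 1 peak is drawn. The interval of Prrx1 (33.7 to 61.4) lies above those of Prrx2, Twist1, Snai2, Zeb1 and Zeb2 and overlaps those of Twist2 and Snai1.

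By the strongest peak of the window the order was Prrx1 (19.9), Snai1 (10.8), Twist2 (10.4), Zeb2 (8.67), Snai2 (8.51), Prrx2 (8.24), and Twist1 and Zeb1 (both 7.81). The fragment interval of Prrx1 did not overlap those of Prrx2, Twist1, Snai2, Zeb1 and Zeb2. From Snai1 to Zeb1 the intervals overlapped, so these neighbors in the order were not told apart. This order takes any peak of the window. By the strongest promoter or body peak, folds were 19.9 at Prrx1, 8.67 at Zeb2, 8.51 at Snai2 and 7.81 at Twist1 and Zeb1. Twist2 had 7.30 and Snai1 4.79, and Prrx2 had no such peak. As a group the peaks of the 10 genes were of ordinary strength. The median fold was 5.74 at promoters (5.55 over the list), 4.79 in gene bodies (5.05) and 5.28 in flanks (5.17).

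When neighboring peaks were stitched over the distance usual in super-enhancer calls and ranked by the sum of fold times width, 864 of 20840 clusters lay above the slope limit. Such a cluster touched the gene or promoter of 1 of the 10 genes, Prrx1, and of 4.58% of all genes. The Prrx1 cluster held 38 peaks over 68.1 kb and ranked 79. A cluster of 29 peaks over 59.3 kb that began in the downstream flank of Snai1 ranked 714 and lay above the limit as well, but did not touch the gene. The cluster at Snai1 itself ranked 3327, that of Twist2 3616, that of Twist1 5132, the highest of Zeb1 5921, that of Zeb2 6033 and that of Snai2 9182. Peaks within 1 kb of a start site were left out before stitching, so these ranks do not count them. The Snai2 cluster held 5 of the 10 Snai2 peaks for this reason.

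Motif shares were taken over the 154 member peaks away from every promoter, beside 92086 list peaks in the same range of widths (80 to 2889 bp). Within that range widths were not matched, and over all classes member peaks were wider (median 194 bp against 163 bp). CATCTG was present in 24.0% of the member peaks (Wilson 95% interval 17.96 to 31.4%) and 20.0% of the list, CACCTG in 19.5% (14.0 to 26.5%) and 15.5%, and CAGCTG in 15.6% (10.7 to 22.1%) and 13.7%. TAATTA was present in 3.90% (1.80 to 8.24%) and 8.13%. AP-1, TEAD and forkhead matches were present in 11.7%, 14.3% and 7.14% of the member peaks, and in 13.1%, 15.3% and 4.70% of the list. CATATG was present in 6.49% and 6.12%, and GTCACGC in 0.649% and 0.761%. Counted per kb of peak, the order of members and list was reversed for CATATG (0.206 against 0.233) and GGAATG (0.658 against 0.645). It was kept for the other motifs. In whole peaks the list share lay within the interval of the member share for each of the 9 motifs. In the 201 bases around the summit the same held for the other motifs but not for GGAATG, which was present in 5.20% of the member peaks (2.66 to 9.92%) and 11.6% of the list. Neighboring peaks share their sequence surroundings, so these intervals are too narrow.

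**Figure D4:**
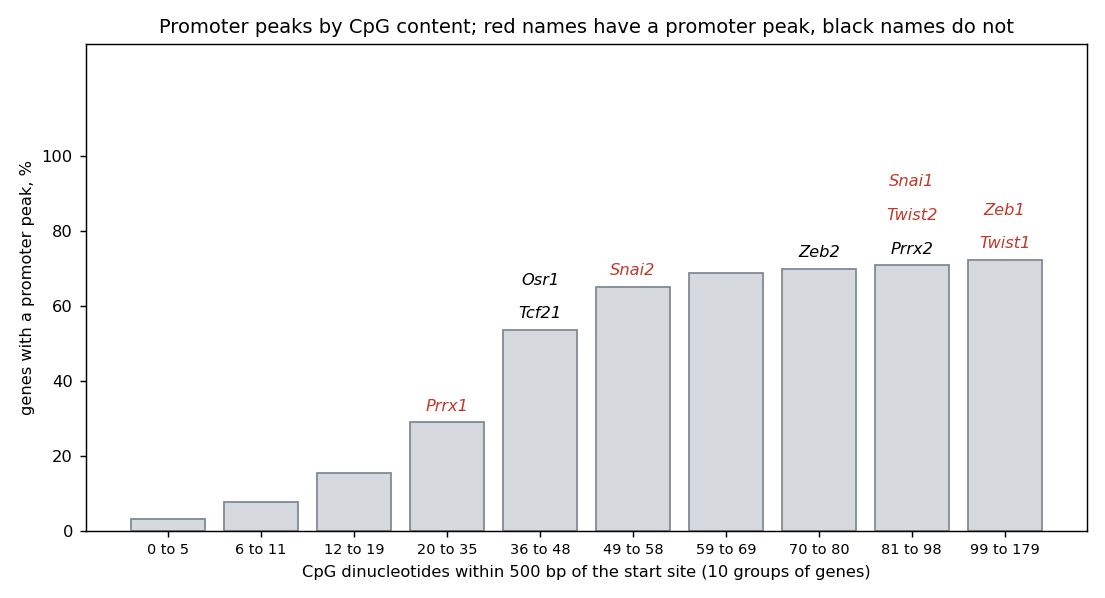
Protein-coding genes in 10 groups by the CpG dinucleotides within 500 bp of the start site (x axis), with the share that has a promoter peak (y axis). Prrx1 has a promoter peak in a group where 28.9% of genes do, and Prrx2 and Zeb2 have none in groups where 71.0% and 70.0% do.

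Promoter peaks in the list were more common at genes with more CpG. Prrx1 had them in a group where most genes had none, and Prrx2 and Zeb2 had none in groups where most genes did. Prrx1 had 26 CpG within 500 bp of its start, in a group of which 28.9% of genes had a promoter peak, and it had 7 such peaks. Its CpG group rests on 1 curated start (163313650), whereas its RefSeq span runs farther upstream, to 163315145. CpG at any other Prrx1 start was not counted. Prrx2 had 88 CpG, in a group at 71.0%, and Zeb2 had 78, in a group at 70.0%, and both had none. Genes without a promoter peak were common in both groups, where 1559 of 2196 and 1375 of 1965 genes had one. Tcf21 (36 CpG) and Osr1 (47 CpG) were in a group at 53.7%. Twist1 (114) and Zeb1 (128) were in the group with the most CpG, at 72.4%, Twist2 (90) and Snai1 (86) in the group of Prrx2, and Snai2 (51) in a group at 65.2%, and all had a promoter peak. None of the 186 peaks covered a start site of its gene. Among all genes with a promoter peak, 8.30% had a start site under a peak.

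**Figure D5:**
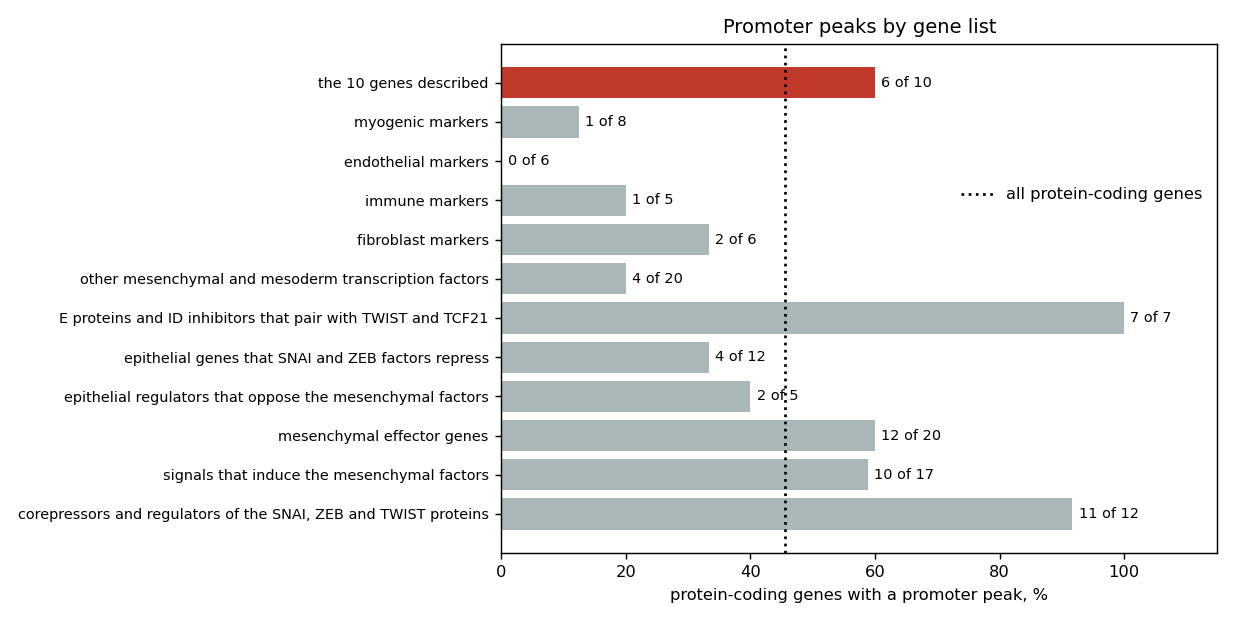
Share of protein-coding genes with a promoter peak (x axis) in the 10 genes described (red) and in lists of markers, partners, targets and inducers (gray), with counts beside the bars and the share over all protein-coding genes as a dotted line at 45.6%. Partners and corepressors lie at the high end, and other mesenchymal transcription factors and cell type markers at the low end.

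Genes that work with the 10 factors were also examined, by list. All 7 E proteins and ID inhibitors, which pair with TWIST and TCF21 or block that pairing, had a promoter peak, with folds of 9.49 at Id3, 8.93 at Tcf12, 7.41 at Tcf4 and 7.35 at Id1. Among corepressors and regulators of the SNAI, ZEB and TWIST proteins 11 of 12 had one, led by Gsk3b (14.8), whose kinase marks SNAI1 for degradation, Kdm1a (10.4), a histone demethylase that SNAI1 recruits, Smarca4 (9.53) and Lats2 (9.10). Hdac1 had none. CpG-rich promoters were common in these lists, with 4 of 7 and 10 of 12 genes in the highest 2 of the 10 CpG groups.

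Of the signals that induce the factors 10 of 17 had a promoter peak, led by Smad2 (9.53), Tgfbr2 (9.10), Smad4 (7.37) and Jag1 (7.12), while Fgf2 and Il6 had none. Mesenchymal effector genes had one at 12 of 20, led by Cd44 and S100a4 (both 11.3), Vim (10.95), the intermediate filament of mesenchymal cells, and Mmp14 (10.7). Acta2 and Cdh11 had none. In contrast, other mesenchymal and mesoderm transcription factors had a promoter peak at 4 of 20 genes, Six2 (10.4), Ets1 (8.29), Scx (6.82) and Snai3 (5.22), with none at Alx1 and Alx4.

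Epithelial genes that SNAI and ZEB factors repress had a promoter peak at 4 of 12, the desmosome gene Dsp (15.6), the keratin genes Krt8 (7.999) and Krt18 (4.46), and Esrp2 (4.04). Cdh1, which encodes E-cadherin, and Cldn3 had none. Epithelial regulators that oppose the factors had one at 2 of 5 protein-coding genes, Klf5 (6.94) and Elf3 (5.92), with none at Grhl2 and Ovol1. The 5 miRNA genes of the miR-200 family had no peak within 2 kb of the start of their RefSeq entries. The nearest summits lay 4306 bp from Mir141, 4711 bp from Mir200c and 20457 to 22220 bp from the others. Starts of the longer transcripts that hold these miRNAs were not examined. Named genes without a promoter peak differed in their other peaks. Fgf2 had 11 gene body and 16 flank peaks, Cdh1 had 3 and 6, and Grhl2 had 3 and 5. Acta2, Cldn3, Hdac1 and Ovol1 had flank peaks alone, and Alx1, Alx4, Cdh11 and Il6 had no peak in the window. A promoter peak gives the place of a mark in this library and not the level of the gene's RNA, which was not analysed here.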

How the data were processed

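H3K27ac CUT&RUN of 1 MCP library was analyzed. Per the study's methods, the authors mapped read pairs to mm10 with bowtie, discarded problematic regions and a region near Col19a1, and called peaks against IgG. The methods name an early MACS release, whereas the labels and the list name MACS2, and the labels name BWA, so the aligner and caller behind the list are uncertain. The deposited list gives a score (the whole part of 10 times the -log10 q), the fold enrichment (a ratio to local background), -log10 p and -log10 q. The authors' threshold behind the list is not settled here.

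The 10 genes and all lists were chosen with earlier results of these data known. Named genes were the members, neighbors with a start in a window, and from each list up to 4 with the highest promoter fold and up to 2 without a promoter peak in alphabetical order. Other genes nearest to a flank peak, such as Ube2v1 and Gtdc1, were named after their values were seen. Fragments were recovered as whole numbers that solve the fold and the p with 1 scale (0.885), within 0.01 of -log10 p. All but 1 of the peaks were solved, and 96.8% had a single solution. The recovery and the peak classes were tested on simulated data. Start sites of curated RefSeq transcripts (31601) gave the promoters, and 7 of the 10 genes matched the RefSeq promoter table. Peaks within 1 kb of a start site were left out of stitching. Peak numbers run to 122959, and 584 are absent. Python 3.11.15, pandas 2.3.3, scipy 1.17.1 and pysam 0.24.0 were used. With 1 library, no test was made. The alternatives tried were thresholds, windows, annotation and the unit of counting.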

Additional observations from a re-analysis of the deposited data

How the results depend on the processing

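No paired analysis was possible because the list is of 1 library and no test was made. Of 51 comparisons with an alternative, 27 stayed within 1.5 times a count or density, or inside the 95% interval of a median or share, and 24 moved, by construction in most since fewer peaks were counted. The strongest 25% of the peaks left 52 peaks in the windows (3.49 per 100 kb), a -log10 q of at least 5 left 93 (6.24 per 100 kb), and at least 20 fragments left 30 (2.01 per 100 kb), with promoter peaks at 2 genes (Prrx1 and Snai2) and body peaks at 2 (Prrx1 and Twist2). Flanks of 10 kb left 114 peaks, and promoters of 500 bp either side left 3 genes with a promoter peak. Peaks under 1 kb apart counted as 1 site, a choice made after seeing the data, gave 65 sites (4.36 per 100 kb), with 17 at Prrx1, 14 at Zeb1, 11 at Snai1 and 1 at Snai2. Median folds rose to 6.49 in gene bodies and 6.53 in flanks with a -log10 q of at least 5, and to 7.81 at promoters, 7.11 in bodies and 7.61 in flanks among peaks over 500 bp. By -log10 q 3 genes, and by fragments 2 genes, had the same place in the order of the strongest peaks, with Prrx1 at the head in both. Stitching over 20 kb put 2 genes, Prrx1 and Snai1, in a cluster above the limit. Those inside 1.5 times included 4 genes with a promoter peak and 4 with a body peak among the strongest 25%, and 133 and 261 peaks with flanks of 25 and 100 kb. Within 100 bp of the summit, CACCTG was present in 13.6% of the member peaks (12.1% of the list), CATATG in 1.95% (4.55%), GGAATG in 5.20% (11.6%, outside the member interval) and TGTTTAC in 1.95% (3.40%). GENCODE start sites added Prrx2, for 7 genes with a promoter peak. The limits are 1 library, few fragments per peak, and a caller and threshold that are uncertain.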
